A study of Mus musculus with 2 samples.

Results

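The clustered histone genes are the mouse genes that code for the replication-dependent histones, and 67 of the 21851 protein-coding genes on the chromosomes used here belong to them. They were taken by name: every protein-coding gene of the GENCODE M21 annotation whose symbol begins with Hist1h, Hist2h, Hist3h or Hist4h. The names give the cluster and the histone type. Hist1 on chromosome 13 held 54 of the genes, Hist2 on chromosome 3 held 10, Hist3 on chromosome 11 held 2 and Hist4 on chromosome 6 held 1. By type there were 6 H1, 18 H2A, 18 H2B, 12 H3 and 13 H4 genes. No measured value entered this rule, though it was set with earlier results of these data known.

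The data are DNase-seq of the hindbrain of B6NCrl mouse embryos at day 11.5. DNase-seq cuts accessible chromatin in nuclei with the nuclease DNase I and sequences the cut ends. There was 1 group of 2 biological replicates, each from pooled embryos of both sexes given as healthy, with no treatment and no other genotype, so no test between conditions was possible. Each library has its own peaks, which are 150 bp wide and carry a height set by the authors, and its own hotspots, which are broader stretches of enriched cutting. Read depth is unknown and the heights have no known common scale between the libraries, so each value is given for replicate 1 and then replicate 2, with no mean or SD.

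Histones package DNA into nucleosomes: pairs of H2A, H2B, H3 and H4 form the core around which DNA winds, and H1 binds the linker DNA. The clustered genes supply new histones while DNA is replicated, and they are transcribed at the histone locus body, a nuclear body organised by the protein NPAT. Their messengers end in a stem-loop bound by SLBP instead of a poly(A) tail. Many copies of each gene code for the same or nearly the same protein, and a few copies are known to be used in the male germ line. The hindbrain at this age holds many dividing progenitors.

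The promoter sequences below show what promoters with and without a peak look like, and they carry the elements described further on. They were picked by hand, after the values were known, as 1 shared H2A and H2B promoter, the H4 promoter with the highest peaks, 1 H3 and 1 H1 promoter, 2 promoters of genes known from the testis, and 1 copied promoter. Each is read 5′ to 3′ from the RefSeq GRCm38.p6 genome, the build the files call mm10, and ends at the base before the GENCODE start of the gene transcribed to the right. Capitals mark the TATA box TATAAA, the CCAAT box, the octamer ATTTGCAT and the H1 box AAACACA on either strand, so that a CCAAT box on the other strand reads ATTGG.
Hist1h2ag/Hist1h2bj (chr13:22042945-22043213, plus strand): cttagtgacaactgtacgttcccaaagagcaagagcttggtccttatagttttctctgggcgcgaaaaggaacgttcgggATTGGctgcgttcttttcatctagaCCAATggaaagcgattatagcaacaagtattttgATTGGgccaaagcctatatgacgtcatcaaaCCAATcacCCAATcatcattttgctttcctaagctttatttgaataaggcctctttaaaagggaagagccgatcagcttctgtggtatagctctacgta
Hist1h4c (chr13:23698455-23698604, minus strand): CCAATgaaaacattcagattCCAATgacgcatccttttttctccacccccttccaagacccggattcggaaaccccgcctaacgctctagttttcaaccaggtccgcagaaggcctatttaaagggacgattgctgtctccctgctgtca
Hist1h3a (chr13:23762387-23762536, minus strand): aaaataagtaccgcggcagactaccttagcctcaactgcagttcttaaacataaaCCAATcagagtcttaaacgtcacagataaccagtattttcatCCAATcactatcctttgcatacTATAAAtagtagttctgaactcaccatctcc
Hist1h1e (chr13:23622559-23622708, minus strand): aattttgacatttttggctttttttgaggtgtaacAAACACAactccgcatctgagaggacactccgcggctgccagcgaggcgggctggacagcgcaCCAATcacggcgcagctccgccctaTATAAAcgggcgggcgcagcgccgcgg
Hist1h1t (chr13:23695664-23695813, plus strand): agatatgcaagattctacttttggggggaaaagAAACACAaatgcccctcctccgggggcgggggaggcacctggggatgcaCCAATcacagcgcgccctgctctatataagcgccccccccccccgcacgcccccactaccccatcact
Hist1h2aa (chr13:23934312-23934461, plus strand): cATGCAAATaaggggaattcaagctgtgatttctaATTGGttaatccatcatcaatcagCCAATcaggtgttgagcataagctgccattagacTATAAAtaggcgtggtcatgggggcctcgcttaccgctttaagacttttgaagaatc
Hist1h2ao (chr13:21810315-21810464, plus strand): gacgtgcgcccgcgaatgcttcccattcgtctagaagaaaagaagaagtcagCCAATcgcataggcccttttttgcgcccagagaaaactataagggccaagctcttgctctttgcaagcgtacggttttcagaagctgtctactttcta
The first sequence is the whole stretch between the starts of Hist1h2ag and Hist1h2bj, which run away from each other. The last sequence, before Hist1h2ao, also occurs base for base at chr13:21833478-21833627 on the other strand, in front of the coding part of Hist1h2ap.

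A promoter peak, meaning a peak that overlaps the window from 1 kb before to 1 kb after an annotated start, was present in both libraries at 58 of the 67 histone genes (86.6%). Over all protein-coding genes the share was 66.4% in both libraries, 67.0% in replicate 1 and 69.5% in replicate 2. No histone gene had a promoter peak in one library alone, and 9 had none in either. Peaks centred within 250 bp of a start were present in both libraries at 51 histone genes (76.1%), against 60.9% of all genes. In the 500 bp window 55 genes had a peak in both libraries, and in the 2500 bp window 60 did. The shares of all protein-coding genes in these windows were not counted, so the 2 counts only show how the histone count depends on the window.

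By type, 5 of 6 H1 genes, 15 of 18 H2A genes, 15 of 18 H2B genes, 12 of 12 H3 genes and 11 of 13 H4 genes had a promoter peak in both libraries. By cluster these were 45 of 54 genes of Hist1 and all 13 genes of Hist2, Hist3 and Hist4. The median height of the highest promoter peak over all 67 genes, counting a gene without a peak as 0, was 103 and 116, against 74 and 110 over all protein-coding genes. Among genes with a peak the histone median was 104 and 118, and that of all genes was 100 and 126. The histone promoters thus ranked near the middle of open promoters in replicate 1, with a median percentile of 56.6, and lower in replicate 2, with a median percentile of 36.1.

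**Figure D1:**
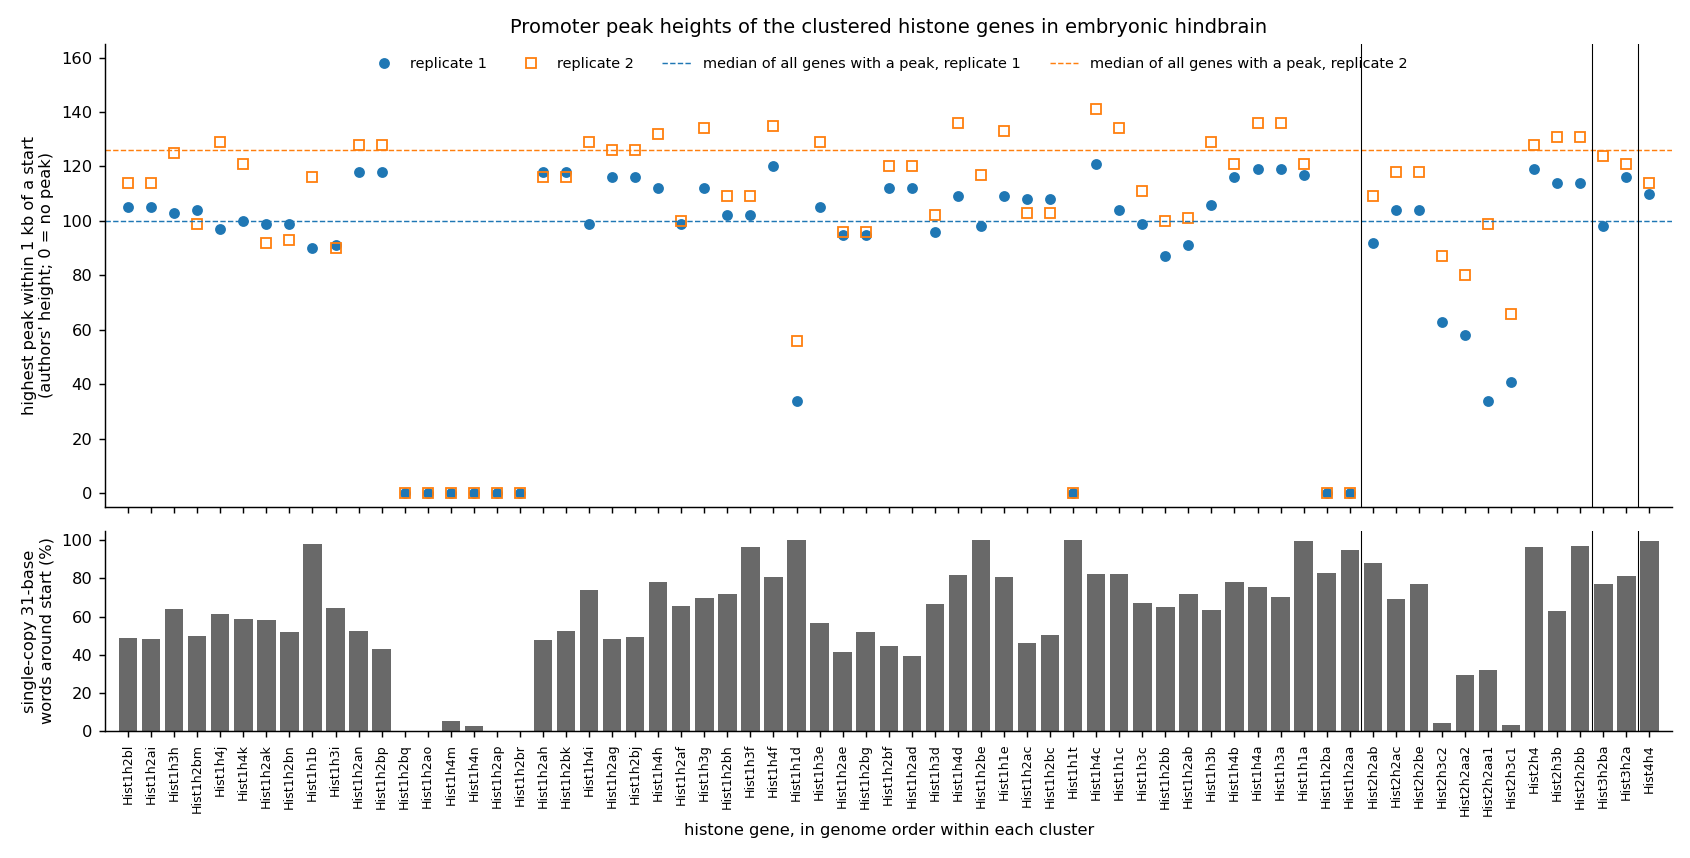
Upper panel: height of the highest peak within 1 kb of a start (authors' height, 0 where there is none) for each of the 67 histone genes in genome order, replicate 1 as filled circles and replicate 2 as open squares, with dashed lines at the medians of all genes with a peak (100 and 126). Lower panel: percent of 31-base words around the start that occur once in the genome. Black lines separate Hist1, Hist2, Hist3 and Hist4; 9 genes lie at 0 in both libraries, 6 of them side by side where the single-copy share is at most 5.39%.

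The H4 genes, whose protein forms a dimer with H3 in the nucleosome core, had the highest median among the 5 types in both libraries (112 and 129 over the 11 genes with a peak). Hist1h4c (chr13:23697635-23698454, minus strand) reached 121 in replicate 1 and 141 in replicate 2, at percentiles 89.4 and 94.4 of all open promoters. Hist1h4f reached 120 and 135. Hist1h4a reached 119 and 136 from a peak centred at positions -300 and -280; within 250 bp of its start it had 116 in replicate 1 and no peak in replicate 2. These 3 genes were the highest of their type by mean percentile, and all lie in Hist1. The range over the 11 open H4 genes was 97 to 121 in replicate 1 and 114 to 141 in replicate 2. The lowest in replicate 1 was Hist1h4j (97 and 129), and the lowest in replicate 2 was Hist4h4 (110 and 114). The libraries therefore ordered the lower H4 genes differently.

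H1 genes code for the linker histones. Hist1h1e had heights of 109 and 133, Hist1h1c of 104 and 134, and Hist1h1a of 117 and 121. Hist1h1b followed at 90 and 116, but the 116 came from a peak centred 1054 bp downstream of its start. Within 250 bp of the start it had 90 and 109. The hotspot over the start of Hist1h1b was 4319 and 2708 bp wide, the widest over a histone start in replicate 1. In replicate 2 that of Hist2h4, at 2992 bp, was wider. Hist1h1d had only 34 and 56, but its annotated start lies 1828 bp before its first coding base. Within 1 kb of the coding start its highest peak was 98 and 122, so its low value belongs to the annotated start and not to the gene as a whole. Hist1h1t, the remaining H1 gene, had no peak.

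All 12 H3 genes had a promoter peak in both libraries, but at 3 of them at least 1 library had no peak centred within 250 bp of the start. Hist1h3g had 112 and 134 at its own start. Hist1h3a is listed at 119 and 136, but that peak lies 856 and 876 bp downstream of its start and is the highest peak of Hist1h4a; its own highest peak within 250 bp was 106 and 82. Hist2h3b is listed at 114 and 131 from the peak in front of Hist2h2bb, 956 and 996 bp downstream, and had 89 and 98 within 250 bp. Hist1h3b (106 and 129), Hist1h3e (105 and 129) and Hist1h3h (103 and 125) had their highest peaks at their own starts. Hist1h3d had 96 and 102, Hist1h3c had 99 and 111, and Hist1h3i had 91 and 90 (91 and 87 within 250 bp). The 2 lowest H3 genes were Hist2h3c1 and Hist2h3c2, described with the copied genes.

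The H2A and H2B genes, whose proteins pair with each other, had medians of 104 and 109 (15 open H2A genes) and of 104 and 116 (15 open H2B genes). The highest H2A genes by mean percentile were Hist1h2an (118 and 128), Hist1h2ag (116 and 126) and Hist3h2a (116 and 121). The highest H2B genes were Hist2h2bb (114 and 131), Hist1h2bp (118 and 128) and Hist1h2bj (116 and 126). Hist1h2an and Hist1h2bp share 1 peak, as do Hist1h2ag and Hist1h2bj, so these are not separate measurements. Among H2A and H2B genes outside pairs, Hist1h2bm had 104 and 99, Hist1h2bb 87 and 100, Hist1h2ab 91 and 101, and Hist1h2af 99 and 100. Hist1h2be had 98 and 117 within 1 kb of its annotated start (98 and 111 within 250 bp), which lies 35168 bp from its first coding base, and 93 and 114 around the coding start.

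**Figure D2:**
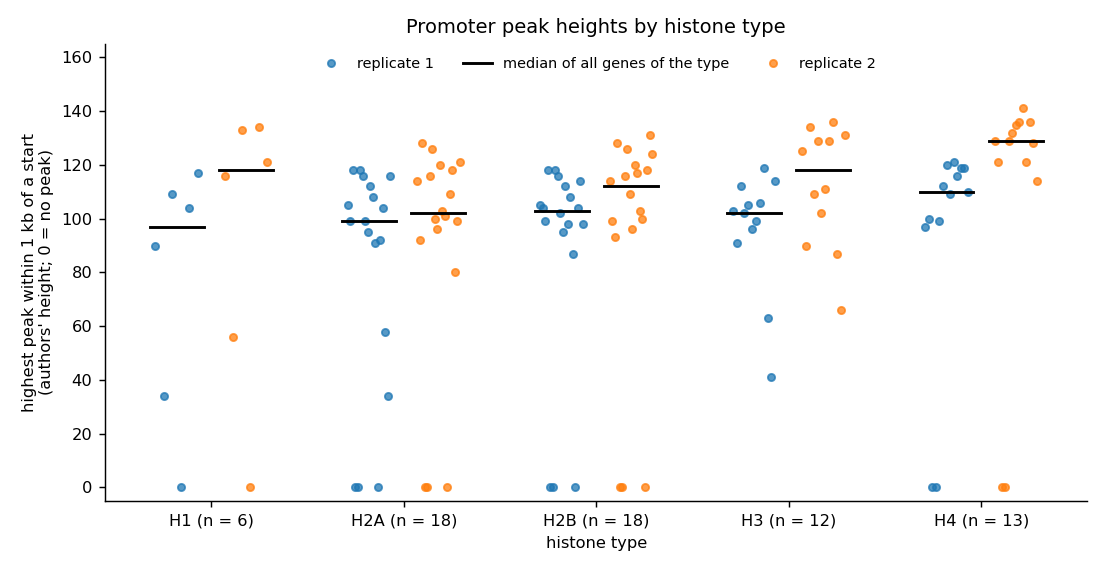
Height of the highest peak within 1 kb of a start (authors' height, 0 where there is none) by histone type, 1 point per gene, with replicate 1 on the left and replicate 2 on the right of each pair and a bar at the median over all genes of the type. The H4 medians over all 13 genes lie at 110 and 129, and each type but H3 has genes at 0.

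The smaller clusters were open at every gene by the 1 kb rule. In Hist3, Hist3h2ba had 98 and 124 and Hist3h2a had 116 and 121; the start of Hist3h2a is also an annotated start of Trim17, so its peak belongs to both genes. Hist4h4, the only gene of Hist4, had 110 and 114. In Hist2, Hist2h4 had 119 and 128, Hist2h2ab had 92 and 109, and the pair Hist2h2ac and Hist2h2be shared a peak of 104 and 118. The 4 Hist2 genes left besides Hist2h3b and Hist2h2bb are 2 pairs of copies, 1 of H2A and 1 of H3 genes, and had the lowest values of the cluster.

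Of the 36 H2A and H2B genes, 25 have a start that faces away from another histone start within 1 kb. There were 13 such divergent pairs, 12 of an H2A with an H2B gene and 1, Hist1h2bh with Hist1h3f, of an H2B with an H3 gene. The starts lay 176 to 660 bp apart (median 268 bp). At 10 pairs a peak was centred between the starts in both libraries, with heights of 95 to 118 (median 106) in replicate 1 and 92 to 128 (median 115) in replicate 2. At 9 pairs both genes had the same highest peak in both libraries, so both genes were counted from 1 site.

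The pair Hist1h2an and Hist1h2bp had 118 and 128 between its starts, Hist1h2ag and Hist1h2bj had 116 and 126, and Hist1h2bf and Hist1h2ad had 112 and 120. These were the pairs highest in replicate 2. Hist1h2ah and Hist1h2bk had 118 and 116, Hist1h2bl and Hist1h2ai 105 and 114, and Hist1h2ac and Hist1h2bc 108 and 103. The lowest were Hist1h2ak and Hist1h2bn (99 and 92), Hist1h2ae and Hist1h2bg (95 and 93), and Hist1h2bh and Hist1h3f (95 and 101). For Hist1h2bh and Hist1h3f a higher peak (102 and 109) was centred 338 and 378 bp past the annotated start of Hist1h3f, whose first coding base lies 433 bp past that start. The 3 pairs without a peak were Hist1h2bq with Hist1h2ao, Hist1h2ap with Hist1h2br, and Hist1h2ba with Hist1h2aa. Of the 41 unpaired histone genes 38 had a promoter peak in both libraries, and of the 26 paired genes 20 did, against 66.4% of all protein-coding genes. The paired genes without a peak are those of the 3 pairs just named. Hist1h2bq with Hist1h2ao and Hist1h2ap with Hist1h2br had 0% single-copy words around their starts, and Hist1h2ba and Hist1h2aa are testis genes. The counts therefore do not show that pairing goes with fewer peaks.

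Because pairs and neighbours share sites, the 58 genes had 46 distinct highest peaks in replicate 1 and 47 in replicate 2. Within 1 kb of a histone start there were 153 peaks in replicate 1 and 164 in replicate 2. Merged by an overlap of at least 1 bp they made 177 sites, of which 119 held a peak of both libraries, 25 of replicate 1 alone and 33 of replicate 2 alone. A gene had up to 6 peaks in its window in replicate 1 and up to 7 in replicate 2. Secondary sites therefore differed between the libraries at genes whose call did not.

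The 9 histone genes without a peak fell into 2 sets by their sequence. Hist1h2bq, Hist1h2ao, Hist1h4m, Hist1h4n, Hist1h2ap and Hist1h2br stand side by side in Hist1, in a segment present as 2 inverted copies. In the windows of 500 bp to each side of their starts, 0% of the 31-base words occur once in the genome for the 4 H2A and H2B genes, 5.39% for Hist1h4m and 2.70% for Hist1h4n. The coding parts of Hist1h2ao and Hist1h2ap, of Hist1h2bq and Hist1h2br, and of Hist1h4m and Hist1h4n are identical. None of these 6 genes had a peak or a hotspot within 1 kb in either library.

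A peak list shows reads that could be placed, and no source used here states how the authors treated reads that match more than 1 place. Of all protein-coding genes under 10% single-copy words, 21 of 871 (2.41%) had a promoter peak in both libraries, and of the 8 histone genes under 10%, 2 did. Why so few genes under 10% had a peak was not tested. As the treatment of reads with several matches is unknown, whether the 6 promoters are open was not detectable from these files. The other 2 histone genes under 10% were Hist2h3c1 (3.10% single-copy) and Hist2h3c2 (4.10%), which code for the same H3 protein from identical coding parts. Hist2h3c1 had 41 and 66, and Hist2h3c2 had 63 and 87, from peaks 766 to 936 bp downstream of the start. Hist2h2aa1 (34 and 99) and Hist2h2aa2 (58 and 80), also identical in their coding parts, had their highest peaks between positions -326 and -306, upstream of the start. None of these 4 had a peak centred within 250 bp of the start in either library.

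The other 3 genes without a peak had mostly single-copy windows: Hist1h1t (100%), Hist1h2aa (94.9%) and Hist1h2ba (82.6%). Hist1h1t codes for the testis linker histone, and Hist1h2aa and Hist1h2ba for the testis H2A and H2B that appear during sperm formation. None of the 3 had a peak or hotspot within 1 kb in either library. Hist1h1t lies inside the third block of Hist1, between Hist1h2bc (108 and 103) and Hist1h4c (121 and 141). Hist1h2ba and Hist1h2aa stand apart as the last block of Hist1, a stretch of 1.08 kb with no peak.

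Repeated sequence reached far beyond these genes. In 21 of the 67 histone windows fewer than 50% of the 31-base words were single-copy, against 7.69% of all genes. Of these 21 genes 15 had a promoter peak in both libraries, and of the other 46 genes 43 did. Among all genes with such repeated windows, 145 of 1680 (8.63%) had one. With only the 46 more single-copy genes counted, the median heights among open genes were 104 and 121, close to the 104 and 118 of all open histone genes.

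**Figure D3:**
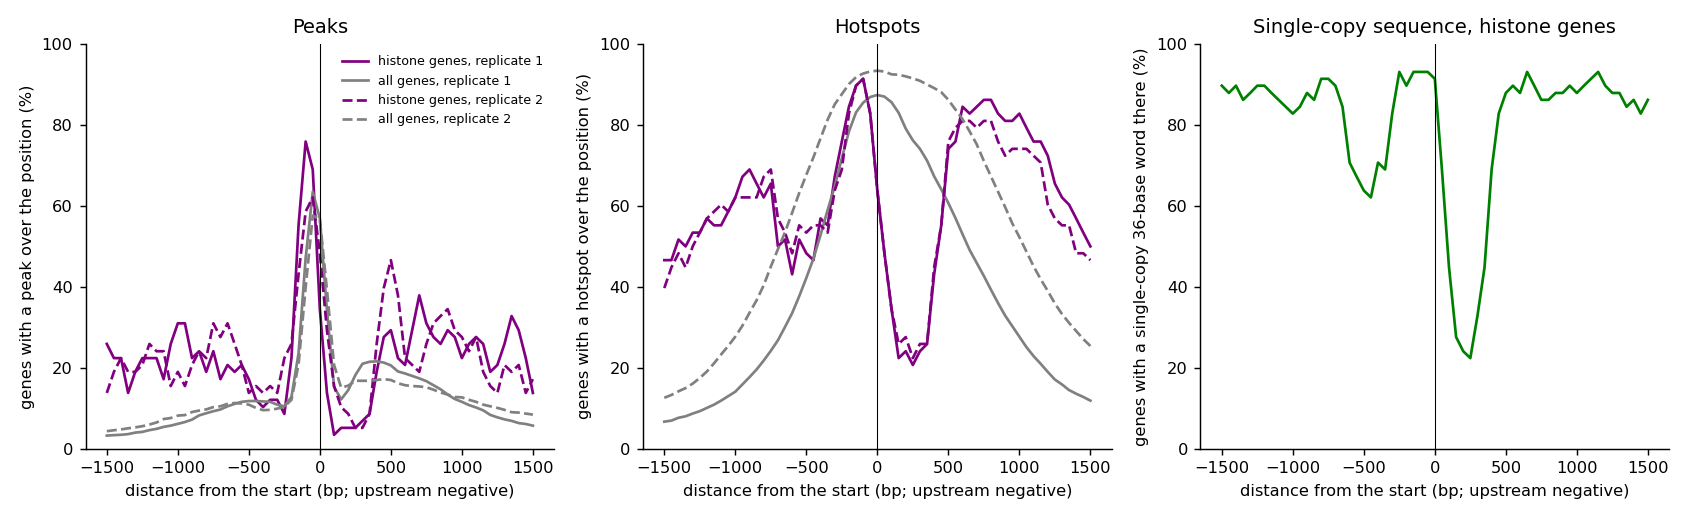
Percent of genes with a peak (left) or a hotspot (middle) over each position from 1500 bp before to 1500 bp after the start, and percent with a single-copy 36-base word there (right), in steps of 50 bp. Purple lines are the 58 histone genes with a promoter peak, grey lines all 14499 genes with one in both libraries; solid lines are replicate 1 and dashed lines replicate 2. Hotspot cover of histone genes drops from 91.4% at 100 bp upstream to 24.1% and 25.9% at 300 bp downstream, where 32.8% have a single-copy word.

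The centre of the highest peak was at a median of 94.0 bp upstream in replicate 1 (position -94.0) and 73.0 bp upstream in replicate 2 (position -73.0), against -37.5 and -25.5 bp over all genes with a peak. For H2A the medians were -116 and -102 bp, for H2B -126 and -168 bp, and for H4 -62.0 and -42.0 bp. For H1 they were 2 and 22 bp and for H3 8 and 18 bp, the latter with several peaks of neighbouring genes among them. Upstream lay 48 of 58 highest peaks in replicate 1 (82.8%, against 71.4% over all genes with a peak) and 40 of 58 in replicate 2 (69.0%, against 64.5%). A peak between the starts of a divergent pair lies upstream of both genes and is counted for each. As 20 of the 58 genes belong to such pairs, these counts and the H2A and H2B medians do not rest on separate sites. The part of pairing in them was not tested. For 11 of the 67 genes the annotated start is the first coding base, so distances from the true start of the messenger are uncertain there.

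The start itself lay in a hotspot of both libraries at 37 of 67 histone genes (55.2%), against 61.0% of all genes, and the same 37 genes were counted in each library. All 37 starts lay in hotspots at the highest value written, 100 on the -log10 scale of the false discovery rate. Of all hotspots, 36.4% in replicate 1 and 35.3% in replicate 2 had this value. The share over the starts of all protein-coding genes was not counted, so this does not set histone genes apart. By type these were 10 of 13 H4, 4 of 6 H1, 9 of 18 H2B, 8 of 18 H2A and 6 of 12 H3 genes. The hotspots over a start had a median width of 544 and 496 bp. At 11 genes whose annotated start is the first coding base, 2 starts lay in a hotspot, and at the other 56 genes 35 did.

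A hotspot covered some of the coding part at 35 of the 58 open genes in replicate 1 and at 36 in replicate 2. Over all 58 a hotspot covered a median of 3.02% of the coding part in replicate 1 and 5.71% in replicate 2. Of the 250 bp before the annotated start, hotspots covered a median of 100% and 98.8%. The median single-copy share of 36-base words was 24.9% in the coding part and 100% in those 250 bp. In the 6 open genes whose coding part was over 90% single-copy, among them Hist1h1a, Hist1h1b, Hist2h4 and Hist4h4, the median hotspot cover of the coding part was 100% in both libraries. In the 7 open genes under 10% single-copy it was 0% in both. These were Hist1h2ag, Hist1h2ad and Hist1h2bc, and the Hist2 copies Hist2h2aa1, Hist2h2aa2, Hist2h3c1 and Hist2h3c2. The median cover of the 250 bp before their annotated starts was also 0% in both, and the Hist2 copies had no hotspot there. The median single-copy share there was 22.8% over the 7 genes. Peak centres lay in the coding part of 8 and 10 of the 58 genes and in the 250 bp before the annotated start of 47 and 43. A peak centre lay within 500 bp past the coding end at 49 of 58 genes in each library and at 47 in both, some of them in a neighbour's promoter. The counts over coding parts and past their ends were not made for all protein-coding genes. They therefore do not show whether histone genes differ from other genes there. Hotspot cover of the coding part thus differed between these sets of genes, and the part of copies in this difference was not tested.

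The 2 libraries ranked the histone promoters alike only in part. Over the 47 distinct highest peaks the Spearman correlation was 0.721, given as a description since these peaks share 2 libraries. The highest promoter peak was higher in replicate 2 at 50 of 58 histone genes (86.2%), while this held at 99.4% of all genes with a peak in both. The median ratio of replicate 2 to replicate 1 was 1.12 for the histone genes and 1.26 for all genes. The 8 genes with the higher value in replicate 1 were H2A, H2B or H3 genes of Hist1: Hist1h2bm, Hist1h2ak, Hist1h2bn, Hist1h3i, Hist1h2ah, Hist1h2bk, Hist1h2ac and Hist1h2bc. Their differences were small, from 91 against 90 at Hist1h3i to 99 against 92 at Hist1h2ak, and 6 of the 8 form 3 divergent pairs. At Hist1h3i the values come from different peaks, centred at -100 and -600, and within 250 bp of the start it had 91 and 87. The replicate 2 value of Hist1h2bn (93) comes from a peak centred 788 bp downstream, and within 250 bp it had 99 and 92.

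The count is given here by the share of repeated sequence. The value was higher in replicate 2 at 8 of 8 histone genes over 90% single-copy, at 30 of 35 between 50% and 90%, and at 12 of 15 under 50%. Genes of a pair share peaks, so these counts are not separate. The peak shared by Hist1h2ah (47.6%) and Hist1h2bk (52.3%) counts in both lower sets. The median ratios of these 3 sets of histone genes were 1.11, 1.14 and 1.09. Among all genes under 50% single-copy the value was higher in replicate 2 at 141 of 145 (97.2%), with a median ratio of 1.45. The part of repeats in the count was not tested.

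**Figure D4:**
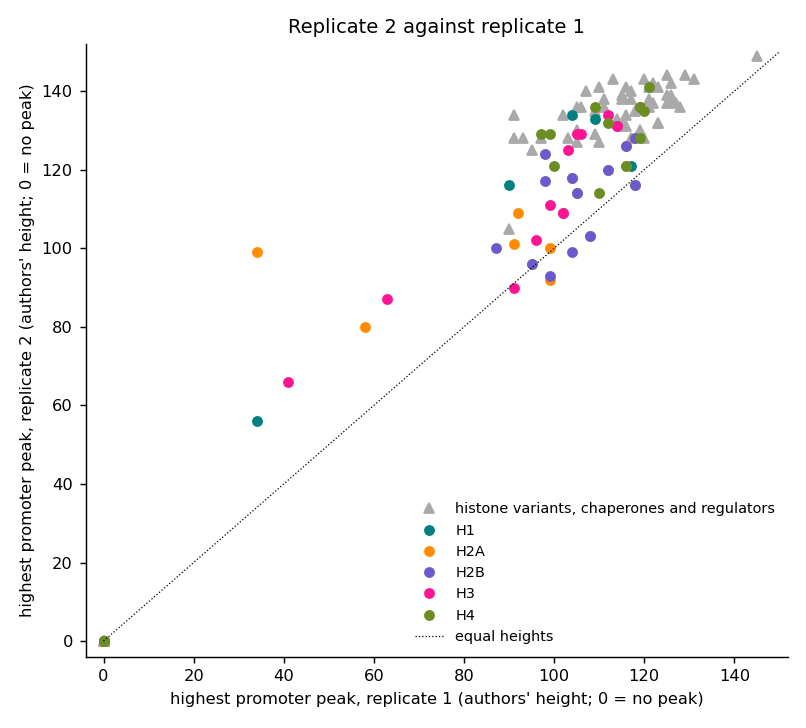
Highest promoter peak in replicate 2 against replicate 1 (authors' heights, 0 where there is none), 1 circle per histone gene coloured by type and 1 grey triangle per gene of the lists of histone variants, chaperones and histone gene regulators; the dotted line marks equal heights. Genes that share a peak lie on each other. Of the histone genes 50 lie above the line and 8 below it.

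Several histone genes code for the same protein, and their promoter peaks differed in height. All 13 H4 genes code for 1 protein, and the 11 open ones spanned 97 to 121 and 114 to 141. Of the 12 H3 genes 8 code for 1 of the 2 H3 proteins, with listed heights of 41 to 114 and 66 to 131. Both ends of that range come from peaks away from the genes' own starts, at Hist2h3c1 and Hist2h3b. The 18 H2A genes code for 9 proteins, the commonest from 9 genes, of which 7 were open with 91 to 118 and 96 to 128. The 18 H2B genes code for 11 proteins, the commonest from 6 genes, of which 4 were open. The 6 H1 genes code for 6 different proteins. Between genes of equal coding length the median identity of coding sequence was 96.7% for H2A, 97.4% for H2B, 97.2% for H3 and 93.9% for H4.

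The elements known from histone promoters were searched in the 250 bases before each start, on both strands, with GENCODE starts. CCAAT, the letters bound by the factor NF-Y, occurred at 54 of 67 histone genes (80.6%) and at 36% of all protein-coding genes. All 18 H2A and all 18 H2B genes had it, 9 of 12 H3, 5 of 6 H1 and 4 of 13 H4 genes. It occurred at least 2 times at 46 histone genes, and in 11.1% of all genes. The printed Hist1h2ag and Hist1h2bj stretch holds 5 of them, in both orientations. Genes of a pair share most of this sequence, so their counts are not separate.

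TATAAA, the core of the TATA box, occurred at 34 of 67 histone genes (50.7%) and at 11.4% of all genes. Its first base lay at a median of 62.0 bases before the start (position -62.0), and at 7 of the 34 genes it lay 40 to 20 bases before the annotated start. Several matches of divergent pairs were counted for both genes, such as 1 site at -64 for Hist1h2ak and -237 for Hist1h2bn. At 11 of the 67 genes the annotated start is the first coding base. The positions therefore do not show where the element lies from the true starts. ATTTGCAT, the octamer bound by OCT1 (Pou2f1) and known from H2B promoters, occurred at 8 of 18 H2B and 7 of 18 H2A genes, at no gene of another histone type, and at 1.44% of all genes. Most of the H2A matches are the same site as that of the H2B gene of the pair, such as Hist1h2ae at -128 and Hist1h2bg at -55. The H2A and H2B counts of the elements in this paragraph are therefore not separate. AAACACA, known as the H1 box, occurred at 4 of 6 H1 genes (Hist1h1b, Hist1h1e, Hist1h1t and Hist1h1c), at 8 histone genes in all, and at 5.61% of all genes. TGACG, the core of the element bound by CREB and its relatives, occurred at 29 histone genes (43.3%) against 19.6% of all genes. GGGCGG, the GC box, occurred at 10 of 13 H4 and 4 of 6 H1 genes but at no H2B gene, and at 28.4% of histone genes against 41.0% of all genes.

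**Figure D5:**
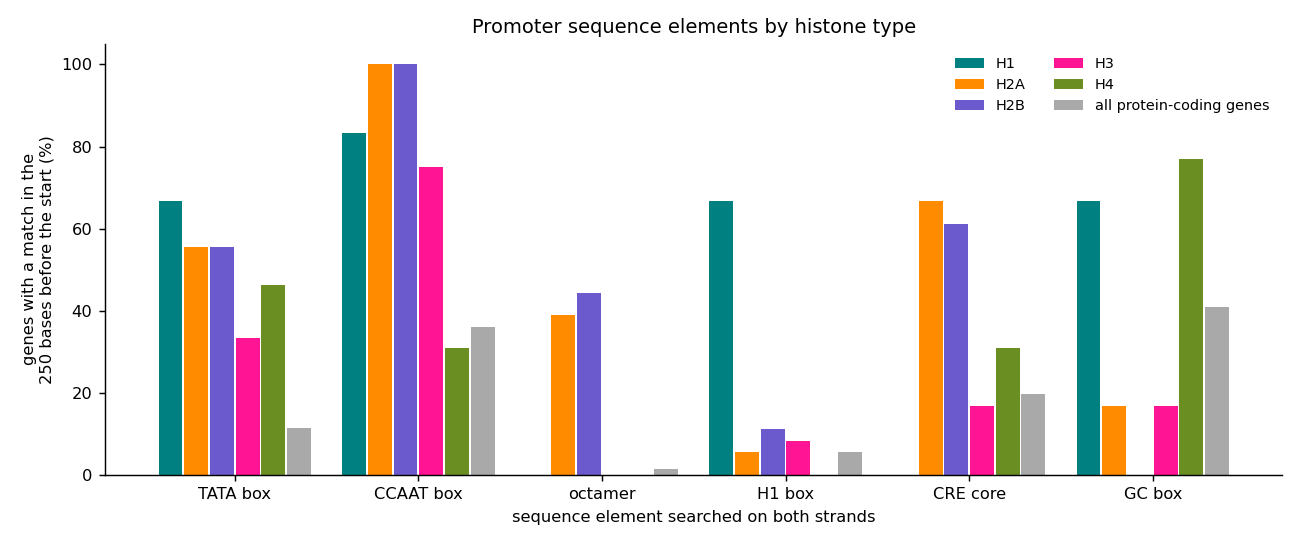
Percent of genes with a match to each element in the 250 bases before the start, on either strand, for the 5 histone types and all 21851 protein-coding genes. The CCAAT box was found at 100% of H2A and H2B genes and 30.8% of H4 genes, and the GC box at 76.9% of H4 genes and 0% of H2B genes.

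Promoters without a peak held elements as well. CCAAT occurred at 7 of the 9 genes without a peak and at 47 of the 58 with one, and TATAAA at 4 of 9 and 30 of 58. Of the 3 genes without a peak whose windows are mostly single-copy, all 3 had CCAAT and 2 had TATAAA. The testis genes show this in the printed sequences: Hist1h2aa carries the TATA box, the CCAAT box and the octamer, and Hist1h1t carries the H1 box and the CCAAT box.

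Around the genes, Hist1 consists of 4 blocks of histone genes, cut where neighbours lie over 100 kb apart. The first block (18 genes, 118 kb) held 5.32 and 4.39 peaks per 10 kb, the second (5 genes, 8.51 kb) 12.9 and 14.1, and the third (29 genes, 233 kb) 5.10 and 4.71. Between the second and the third block lie 1487 kb with 40 other protein-coding genes, 36 of them vomeronasal receptor genes of the Vmn1r family. This gap held 1.08 and 1.17 peaks per 10 kb. Only Vmn1r200 of the 36 receptor genes had a promoter peak in both libraries (30 and 36), while Zfp322a (113 and 129) and Abt1 (112 and 129) in the same gap were open. Hotspots covered 19.6% and 16.5% of the third block and 3.32% and 4.03% of the gap. The gap between the first and the second block (201 kb) was unlike it, with 3.58 and 4.53 peaks per 10 kb and hotspots over 10.8% and 17.1%, against 19.5% and 15.5% in the first block. Hist2 (50.3 kb) held 5.17 and 5.57 peaks per 10 kb.

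The factors that transcribe the clustered genes and process their messengers were open at every gene measured, 24 of 24, with a median of 116 and 136. Over all protein-coding genes 66.4% had a promoter peak in both libraries, and the median of genes with a peak was 100 and 126. Sympk, a scaffold of the cleavage complex, had 129 and 144, Npat had 131 and 143, and Nfya, a subunit of NF-Y, had 126 and 142. Slbp, which binds the stem-loop, had 110 and 141, and Hinfp, the factor known to bind H4 promoters, had 127 and 137. All 20 histone chaperones measured were open as well, with a median of 120 and 136. Hjurp, the chaperone of the centromeric H3, had 145 and 149, equal to the highest value of any peak used in each library. Asf1b had 122 and 142 and Chaf1b, a subunit of the assembly factor CAF-1, had 125 and 139.

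Of 17 genes for histone variants outside the clusters, which can be made without DNA replication, 11 were open, near the share of 66.4% over all protein-coding genes. H2afv (125 and 144) and H2afz (126 and 139), the H2A.Z genes, and H2afx (122 and 137) were highest by mean percentile. No peak was found at H1foo, the oocyte linker histone, at H1fnt, a testis linker histone, or at H2bfm, H2afb1, H2afb2 and H2afb3. The single-copy share of the H2afb windows was 40.7% to 55.4%, and that of H1foo, H1fnt and H2bfm was 98.5% to 100%.

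Replicate 1 had 150176 peaks with a median height of 36 and replicate 2 had 194873 with a median of 50. Of 10 hindbrain and neural tube genes 8 had a promoter peak in both libraries and 2, Hoxa2 and Hoxb2, in replicate 2 alone. Of 10 genes of other tissues 7 had one in neither library. Over all 21851 protein-coding genes 66.4% had one in both libraries and 6522 had one in neither. Cd68, a macrophage gene, had 37 and 60, and Myh6, a heart muscle gene, had 0 and 21. In such bulk tissue a lower height can come from fewer cells with an open site or from less cutting per cell, and the files cannot tell these apart.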

How the data were processed

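DNase-seq was deposited for 2 biological replicates of embryonic hindbrain. The authors called peaks and hotspots for each library from its own alignments to mm10, per the text deposited beside the files. A later record that replaces the series was not analysed here. No source used here names the aligner, the callers, the treatment of reads with several matches or the depth. The deposited peak height is a signal value, a whole number with unknown scaling. The deposited hotspot value is the −log10 of a false discovery rate, from 1.30 to 6.00, with stronger ones written as 100. As depth is unknown, no counting interval can be given.

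Only the autosomes 1 to 19, X and Y entered, leaving out 32 and 60 repeated entries. Starts were 41438 starts of 21851 protein-coding genes in the basic set of GENCODE M21. For each gene the highest peak within 1 kb of any start was taken, with its percentile among all genes with a peak. Copies were counted as 31-base words of the GRCm38.p6 chromosomes on either strand, and 36-base words were added after the values were seen. Window queries and word counts were checked on simulated data. Python 3.11.15, numpy 2.4.6, pandas 2.3.3, scipy 1.17.1, numba 0.67.0, biopython 1.88 and matplotlib 3.10.9 were used. Ars2 and H2bfs matched no gene symbol, and 1 tissue marker is not reported here.

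The members and lists were chosen with earlier results of these data known. Named were the 3 highest genes of each type and list by mean percentile, every gene without a peak, every gene of Hist2, Hist3 and Hist4 and every pair. Other names were chosen after their values were seen. With 1 group no test was run. Alternatives changed the window, height, overlap, starts, copies and libraries used.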

Additional observations from a re-analysis of the deposited data

How the results depend on the processing

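The 76 alternative values covered the window, a height threshold, the overlap, the set of starts, the repeated genes and each library alone. Of these, 74 stayed within 1.5 times the count, or within the spread, of the value reported. With each peak given to its nearest start alone, the median height over all histone genes in replicate 2 was 103 instead of 116. In the 500 bp window, 70 sites held a peak of both libraries instead of 119. From 1 library alone the number of genes with a promoter peak was 58 in each, and the number of sites was 153 to 164. Alternatives added after the values were seen gave 47 of 50 genes over 50% single-copy by 36-base words, 51 genes with a peak centred within 250 bp, and 58 by the coding start. No paired analysis was possible because there was 1 group. Unknown depth and reads with several matches limit what the copied genes without a peak show.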

Other observations

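Hotspot edges near the histone genes fell on the same base in both libraries more often than elsewhere. Within 1 kb of a histone coding part, 60 of the 112 hotspot starts of replicate 1 (53.6%) and 60 of its 115 hotspot ends (52.2%) were also an edge of replicate 2. Over the whole genome the shares were 3.19% of starts and 3.21% of ends. Of the 60 shared starts, 59 lay exactly 0 or 100 bp past a base where the 36-base words change between single-copy and repeated. All 60 shared ends lay exactly 35 bp past or 65 bp before such a change. Among edges of replicate 1 alone, 2 of 52 starts and 4 of 55 ends lay at these distances. The word length and the distances were picked after looking at the commonest distances in these data, with 31-base and 36-base words both tried, so the counts describe these libraries and test nothing. No source used here states the read length.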
